A study of Mus musculus with 3 samples.

Results

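The inflammatory monocyte-derived macrophages of the LPS-injured mouse lung are lung cells with RNA of at least 3 of 6 activation genes. Chosen markers of other lung macrophages and of nonclassical monocytes were capped, not absent, in these inflammatory cells. A cell was counted among them when it had a UMI (a unique molecular identifier, 1 per captured RNA molecule) for at least 3 of Upp1, Msr1, Ccl2, Gpr84, Cd38 and Ass1. It also had at most 2 UMIs summed over the alveolar macrophage genes Krt79, Plet1 and Slc39a2, at most 1 of the interstitial macrophage genes Folr2, Cd163, Col14a1 and Vcam1, at most 1 of the nonclassical monocyte genes Ace, Adgre4, Cd300e, Spn and Treml4, and fewer than 3 of 7 cell cycle genes. Over the libraries with LPS, 1438 cells met the rule, among 31681 cells that passed the cell filter in the whole series. They were 544 of 9669 cells in the LPS with Reg3g library and 894 of 13880 in the LPS library. Because these genes chose the cells, their levels are given as a description and carry no test.

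All mice were C57BL/6 wild type, and lungs were taken 24 h after an instillation of 50 µL into the trachea. The groups had LPS (lipopolysaccharide of the bacterial cell wall) at 4 mg/kg together with Reg3g (6 µg), which is a lectin of the C-type released by epithelia, or LPS at 4 mg/kg alone, or PBS alone. The sort kept live CD45-positive, Ly6G-negative, F4/80-positive cells with CD11b or CD11c, so the share of any cell type is a share within this gate. Each group is 1 library of droplet single-cell RNA sequencing from the pooled cells of 3 mice. No difference between groups therefore has a replicate check, no p-value was computed, and every interval is a 95% interval that covers counting error only.

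The libraries held 8475 to 15015 barcodes and 52354207 to 70474636 UMIs. Between 60 and 69 barcodes of a library also occurred in another library, and 5 and 2 of these were inflammatory cells of the LPS with Reg3g and LPS libraries. The median inflammatory cell had 5360.5 UMIs in the LPS with Reg3g library and 4584 in the LPS library, and 3129980 and 4488929 UMIs entered the sums. Levels are given as counts per 1000000 UMIs of the population (CPM). The protocol counts the 3' ends of transcripts, so a level is not divided by gene length.

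Monocytes leave the blood and enter the injured lung, where they take on macrophage functions beside the resident alveolar and interstitial macrophages. Their activation by LPS runs through Toll-like receptor 4 and is known to turn on chemokines, cytokines, acute phase proteins and enzymes that divert metabolites into antimicrobial products. Acod1 makes itaconate from the tricarboxylic acid cycle, Arg1 splits arginine to ornithine and urea, and Ass1 takes part in making arginine anew. Ccl2, Ccl7 and Ccl12 are ligands that draw in further monocytes through the receptor Ccr2.

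The most abundant of the markers was Saa3, an acute phase apolipoprotein, and Upp1, a uridine phosphorylase, was a rule gene with little RNA in alveolar and interstitial macrophages. Among the genes looked up that had a promoter window, Saa3 and Upp1 alone held a motif match, and windows of both are shown. Each runs from 250 bases before to 50 bases after a RefSeq transcription start in build GRCm38.p6 and is printed 5′ to 3′ along the gene's strand. Saa3 lies on the minus strand at chr7:46715627-46715926, and the first of 3 windows of Upp1 lies on the plus strand at chr11:9117758-9118057. Capitals mark motif matches.
Saa3: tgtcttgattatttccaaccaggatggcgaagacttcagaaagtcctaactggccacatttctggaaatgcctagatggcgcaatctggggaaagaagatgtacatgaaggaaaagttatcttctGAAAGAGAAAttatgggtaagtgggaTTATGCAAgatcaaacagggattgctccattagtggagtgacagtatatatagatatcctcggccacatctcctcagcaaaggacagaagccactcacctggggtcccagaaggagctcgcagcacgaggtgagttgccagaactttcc
Upp1: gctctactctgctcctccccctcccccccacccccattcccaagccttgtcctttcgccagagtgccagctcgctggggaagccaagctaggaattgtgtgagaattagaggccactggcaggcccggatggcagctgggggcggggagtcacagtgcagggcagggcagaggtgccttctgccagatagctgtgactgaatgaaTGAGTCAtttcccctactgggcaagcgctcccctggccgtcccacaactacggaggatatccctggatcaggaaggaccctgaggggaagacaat

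Both strands were searched for the interferon-stimulated response element, an AP-1 motif (TGANTCA), a C/EBP motif (TTGCNNAA) and the NF-kB motif, and no matches overlapped in these windows. The Saa3 window held the interferon-stimulated response element as GAAAGAGAAA from -125 to -116 and TTATGCAA, a C/EBP match on the other strand, from -99 to -92, counted from the start site. The Upp1 window held TGAGTCA, an AP-1 match, from -45 to -39. Another Upp1 window held the same site from -140 to -134 of its own start, and the last held none of the 4 motifs. Of 32851 promoter windows of the same length, 3.44% held the interferon-stimulated response element, 7.81% the AP-1 motif, 10.8% the C/EBP motif and 8.46% the NF-kB motif. RefSeq windows were matched for 5 of 9 genes looked up, the 7 markers with Ccl7 and Ccl12, and those of Acod1, Gpr84 and Ccl12 held none of the 4 motifs. A match describes letters in this window and was not tied to any binding here.

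Inflammatory cells made up 5.63% of the cells kept in the LPS with Reg3g library (95% Clopper-Pearson interval 5.18 to 6.10), 6.44% in the LPS library (6.04 to 6.86) and 0.123% in the PBS library (0.0590 to 0.226). The share with Reg3g was 0.874 times that with LPS alone (0.788 to 0.969), a small gap that 1 library a group cannot set against the spread between mice. The PBS library held 10 cells that met the criteria, and these had no UMI of Acod1, Arg1 or Saa3. They are not counted among the 1438.

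Set against the classical monocytes of the same gate (a UMI of both Ly6c2 and Ccr2 and fewer than 3 of the 6 rule genes), inflammatory cells were 54.4% of both populations together in the LPS with Reg3g library (51.3 to 57.5). The value was 47.8% in the LPS library (45.5 to 50.1) and 1.09% in the PBS library (0.524 to 1.99). The share of inflammatory cells in this pair was higher with Reg3g, although their share of all cells was lower. Cells were also deeper with Reg3g, with medians of 5360.5 against 4584 UMIs in inflammatory cells and 4463.5 against 3494 in classical monocytes. The share in this pair is not given for thinned cells, and the part of depth in it was not tested. Neutrophils, which the Ly6G gate was meant to remove, were 1.58% of kept cells with Reg3g and 0.901% with LPS alone.

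Deeper cells reach 3 detected genes more readily. After every cell was thinned to 2000 UMIs before the rule was applied, 314 of 8776 cells (3.58%, 3.20 to 3.99) qualified in the LPS with Reg3g library and 466 of 11885 (3.92%, 3.58 to 4.29) in the LPS library. The intervals overlap.

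The rule genes were not carried evenly. Msr1, a scavenger receptor, had a UMI in 81.4% of inflammatory cells with Reg3g and 78.1% with LPS alone. Cd38, an enzyme that breaks down NAD, had one in 80.0% and 72.5%, and Ass1 in 66.4% and 67.0%. The chemokine gene Ccl2 had one in 57.5% and 51.3%, Upp1 in 49.4% and 61.4%, and Gpr84, a receptor for medium-chain fatty acids, in 41.9% and 42.4%. Upp1 was the rule gene whose share was lower with Reg3g by the widest margin.

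The threshold of 3 genes cuts a gradient rather than a gap. Cells with exactly 3 rule genes, just inside, numbered 276 in the LPS with Reg3g library and 456 in the LPS library. Cells with exactly 2, just outside, numbered 474 and 830. Arg1, which is no rule gene, was at 173 CPM in the cells with 3 rule genes and 95.3 CPM in those with 2 in the LPS with Reg3g library, and at 220.0 and 101 CPM in the LPS library. Saa3 was at 9998 and 8072 CPM in the same cells with Reg3g, and at 10979.6 and 8206 CPM with LPS alone. The classical monocyte gene Plac8 stood at 2797 against 3488 CPM with Reg3g and at 2607 against 2843 CPM with LPS alone, so it ran the other way.

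Among the cells inside, Arg1 was higher in cells with 4 or more rule genes than in those with 3. In the LPS with Reg3g library it was at 173 CPM in cells with 3, 726 with 4, 1193 with 5 and 1051 with all 6. In the LPS library the values were 220.0, 596, 814 and 728 CPM. Plac8 was lower with each further rule gene in both libraries, with 2797, 1851, 1354 and 913 CPM with Reg3g and 2607, 1877, 1553 and 1379 CPM with LPS alone. Cells with more rule genes were also deeper: the median was 4820 UMIs with 3 genes and 7982 with 6 in the LPS with Reg3g library, and 4042.5 and 7091 in the LPS library. The part of depth in these gradients was not tested here.

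The 7 markers given for these cells describe them and are no test of the label. Upp1, Ccl2, Msr1 and Gpr84 are rule genes, so UMIs of these followed from the choice of cells. Upp1, Ccl2, Acod1, Msr1, Arg1, Saa3 and Gpr84 all had UMIs in both libraries, and their summed level was 13994 CPM with Reg3g and 14631 CPM with LPS alone. Saa3 supplied most of that sum, with 11282 CPM in the LPS with Reg3g library and 12132 CPM in the LPS library. Acod1 was at 585 and 672 CPM and Arg1 at 602 and 483 CPM. Saa3, Acod1 and Arg1 are the markers outside the rule. Whether the cells came from monocytes was not measured: the gate reads surface proteins and the rule reads RNA, and the name describes a resemblance.

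Saa3 did not mark these cells off. It was at 9281 and 8283 CPM in classical monocytes of the LPS with Reg3g and LPS libraries, at 7729 and 8488 CPM in nonclassical monocytes, and at 19173 and 24348 CPM in interstitial macrophages, which numbered only 60 and 57. In classical monocytes of the PBS library it was at 2.56 CPM. The inflammatory cells therefore shared Saa3 with the other monocyte populations after LPS, above the 419.7 and 770.3 CPM of alveolar macrophages.

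Arg1 was more restricted. It was at 602 and 483 CPM in inflammatory cells, 51.3 and 197 CPM in interstitial macrophages, 39.3 and 39.0 CPM in nonclassical monocytes, 7.45 and 33.1 CPM in classical monocytes and 5.05 and 9.45 CPM in alveolar macrophages, each with the LPS with Reg3g library first. Inflammatory cells stood highest in both libraries. After thinning to 2000 UMIs, a UMI of Arg1 was found in 21.5% of inflammatory cells with Reg3g (18.04 to 25.3) and 17.5% with LPS alone (14.9 to 20.2). The unthinned shares were 27.6% and 22.7%. Lymphoid cells, which should lack Arg1 and show the level of free RNA, had one in 2.86% (0.0723 to 14.9) and 3.28% (0.39956 to 11.3) after thinning, from median depths of 1865 and 1669 UMIs. Thinning left out 42 of 77 and 80 of 141 lymphoid cells and only 23 of 544 and 58 of 894 inflammatory cells.

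Acod1 had a UMI in 45.7% of thinned inflammatory cells with Reg3g (41.3 to 50.1) and 50.8% with LPS alone (47.4 to 54.3). In classical monocytes the shares were 11.5% and 18.2%, and in lymphoid cells 8.57% and 11.5%. Neutrophils, at 432 and 381 CPM, and nonclassical monocytes, at 289 and 314 CPM, came next after the inflammatory cells in Acod1 level.

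Gpr84 and Upp1 were also seen in other LPS-exposed cells. Upp1 was at 228 and 304 CPM in inflammatory cells and at 183 and 189 CPM in neutrophils, but at 9.41 and 12.8 CPM in alveolar macrophages. Gpr84 was at 114 and 129.7 CPM in inflammatory cells, with 60.1 and 62.9 CPM in neutrophils and 47.9 and 88.6 CPM in interstitial macrophages. Ass1 was at 259 and 278 CPM in inflammatory cells and at 23.9 and 0 CPM in the few interstitial macrophages.

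**Figure D1:**
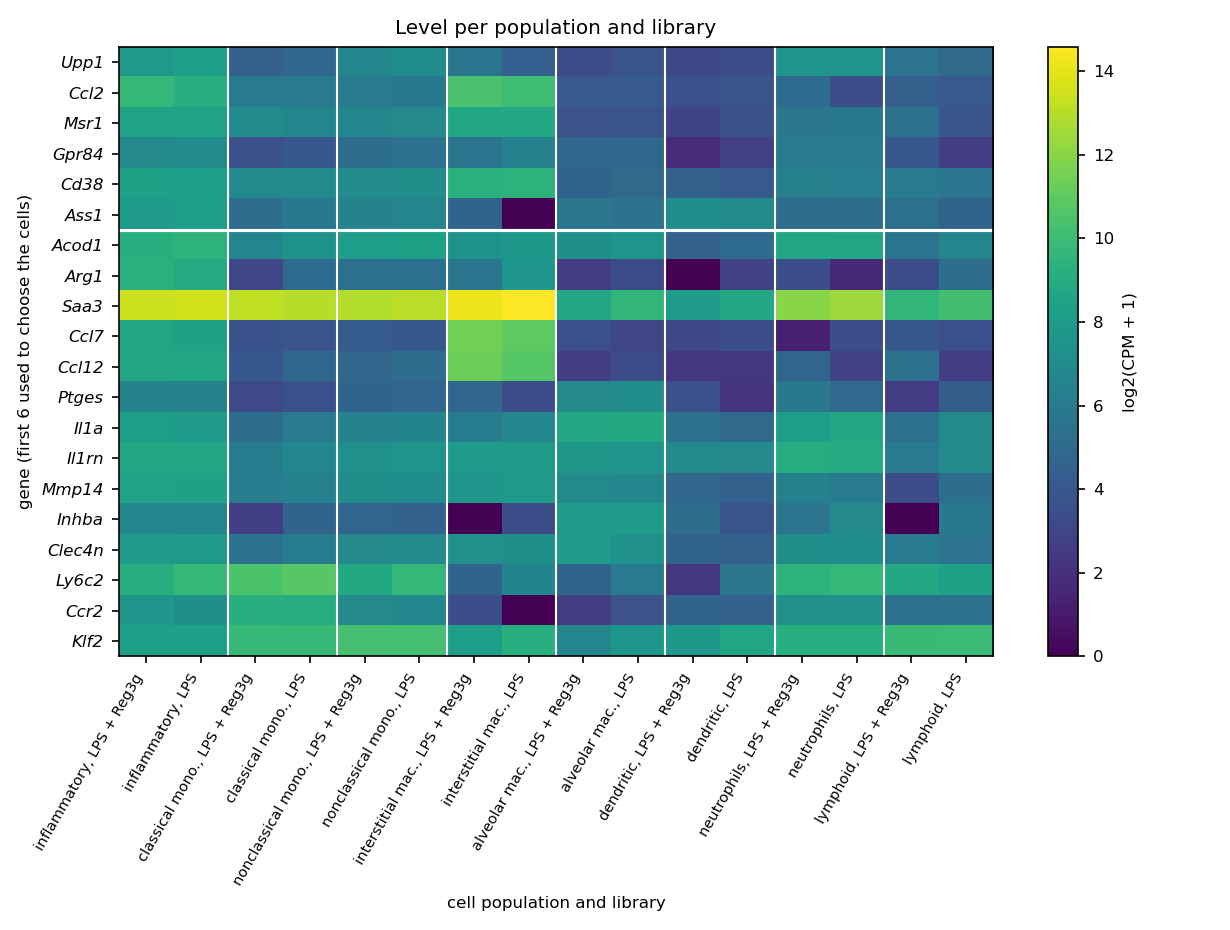
Level of 20 genes in 8 cell populations of the LPS with Reg3g and LPS libraries, as log2(CPM + 1) in colour; the first 6 genes, above the white line, chose the inflammatory cells. Arg1 and Upp1 are brightest in the inflammatory columns, whereas Saa3, Ccl7 and Ccl12 are brighter in interstitial macrophages.

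Markers of other cell types had UMIs in these cells. The alveolar and interstitial lists include the genes that the rule capped, so their low sums follow in part from the rule. Of 12 alveolar macrophage markers all had UMIs, summing to 375 CPM with Reg3g and 536 CPM with LPS alone, against 8508 and 8475 CPM in alveolar macrophages, and most of the sum was Lpl. Interstitial markers summed to 2688 and 2685 CPM, led by the complement gene C1qb at 1091 and 1036 CPM, against 20391 and 20635 CPM in interstitial macrophages. The 12 classical monocyte markers summed to 6091 and 6283 CPM, with Plac8 leading at 2098 and 2104 CPM, against 12370 and 10819 CPM in classical monocytes. Ncr1 of natural killer cells and Krt8 of epithelium were at 0 in both libraries.

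Neutrophil and dendritic cell RNA differed between the libraries. The 10 neutrophil markers summed to 2329.7 CPM in inflammatory cells with Reg3g and 1429.5 CPM with LPS alone, led by S100a8 at 1174 and 629 CPM. Migratory dendritic cell markers summed to 99.0 and 202 CPM. Of the inflammatory cells, 78 with Reg3g and 85 with LPS alone held at least 3 of 7 neutrophil genes, and 2 and 13 held at least 2 of 7 dendritic cell genes. The share ratio was 0.835 without those cells. Removing the highest doublet scores took away 8 and 15 inflammatory cells, 1.47% and 1.68% of them.

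What distinguished the inflammatory cells from classical monocytes was read in both libraries. This is the contrast on which the rule was built, so the values describe the cells and nothing was tested. Among 3064 genes at 50 CPM or more in the higher population of each library, 75 (2.45%) were at least 2-fold higher in inflammatory cells in both libraries, 6 of them rule genes, and 49 (1.6%) were at least 2-fold lower.

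Chemokines of the Ccl2 family led the higher genes. Ccl7 was at 384 and 317 CPM in inflammatory cells, against 11.6 and 13.1 CPM in classical monocytes, log2 ratios of 5.05 with Reg3g and 4.60 with LPS alone. Ccl12 was at 381 and 414 CPM against 14.9 and 27.6 CPM, log2 ratios of 4.68 and 3.91. The rule gene Ccl2 was at 847 and 573 CPM against 66.1 and 66.4 CPM. These 3 chemokines were higher still in interstitial macrophages, where Ccl7 was at 2862 and 1985 CPM, Ccl12 at 2509.9 and 1669 CPM and Ccl2 at 1347 and 1069 CPM.

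The RNA of Ccl7 and Ccl12 sat in a minority of cells, whereas the rule gene Ccl2 had a UMI in 57.5% and 51.3%. Ccl7 had a UMI in 23.5% of inflammatory cells with Reg3g and 18.9% with LPS alone, and 10 cells held 43.6% and 37.9% of its UMIs. Ccl12 had a UMI in 29.2% and 27.4% of cells, and 10 cells held 43.4% and 26.7% of its UMIs. For Saa3, found in 92.6% and 95.4% of cells, the 10 highest cells held 13.9% and 15.0%.

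Arginine and itaconate enzymes followed. The log2 ratio of inflammatory cells over classical monocytes was 6.34 with Reg3g and 3.87 with LPS alone for Arg1. For Acod1, at 585 and 672 CPM against 101 and 172 CPM, it was 2.54 and 1.97. Nos2, the inducible nitric oxide synthase that competes with Arg1 for arginine, stayed low at 15.3 and 7.80 CPM in inflammatory cells. Of 10 measured genes for itaconate, arginine and pterin metabolism, 6 passed 2-fold upwards in both libraries and none downwards. The rule gene Ass1, which helped choose the cells, is counted among the 6. At the floor of 10 CPM used for lists, 209 of 7750 genes (2.7%) passed 2-fold upwards in both libraries and 138 (1.78%) downwards, and the median over all of them was -0.04 with Reg3g and -0.05 with LPS alone.

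Il1a, Il1rn, Ptges and Inhba were among the named higher genes. Il1a, the alarm cytokine interleukin 1 alpha, was at 282 and 266 CPM against 34.5 and 62.1 CPM in classical monocytes, log2 ratios of 3.03 and 2.10. Il1rn, which encodes the antagonist of the same receptor, was at 420.1 and 424 CPM against 72.6 and 110.2 CPM, log2 ratios of 2.53 and 1.94. Ptges, the inducible prostaglandin E synthase, was at 92.3 and 80.9 CPM against 8.38 and 10.7 CPM, and Inhba, a subunit of activin, at 105 and 96.2 CPM against 5.59 and 24.6 CPM. Alveolar macrophages had more Il1a, at 444 and 468 CPM, and more Inhba, at 244 and 252 CPM, than the inflammatory cells.

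Surface and matrix genes completed the higher group. Clec4n and Clec5a, C-type lectin receptors of myeloid cells, had log2 ratios over classical monocytes of 2.45 and 1.74 with Reg3g and of 1.85 and 1.81 with LPS alone. Mmp14, a membrane-bound matrix metalloproteinase, was at 337 and 321 CPM against 71.2 and 79.3 CPM. The motor protein gene Myo1e, the transcription factor gene Creb5 and the carboxypeptidase gene Cpd had log2 ratios of 2.55, 2.28 and 2.89 with Reg3g and 2.67, 2.13 and 2.08 with LPS alone. AA467197, whose levels were 1049 and 1023 CPM against 89.4 and 162 CPM, had the highest level of the 15 named genes.

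The genes lower in inflammatory cells included Klf2, Ccr2 and Gzma. Klf2, a transcription factor of quiescent leukocytes, was at 293 and 296 CPM against 883 and 861 CPM, log2 ratios of -1.59 and -1.54. Ccr2 was at 189 and 149.7 CPM against 554 and 514 CPM, but a UMI of Ccr2 and of Ly6c2 defined the classical monocytes, so those genes had to be higher there. Gzma, a granule protease of natural killer and T cells, had 0 and 10.9 CPM in inflammatory cells and 57.3 and 58.5 CPM in classical monocytes. Its 49 UMIs in inflammatory cells of the LPS library came from 2 cells. Pdcd4, Niban1, Rnase6, Arhgap15, H1f2 and Gvin3 were also among the lowest named genes.

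**Figure D2:**
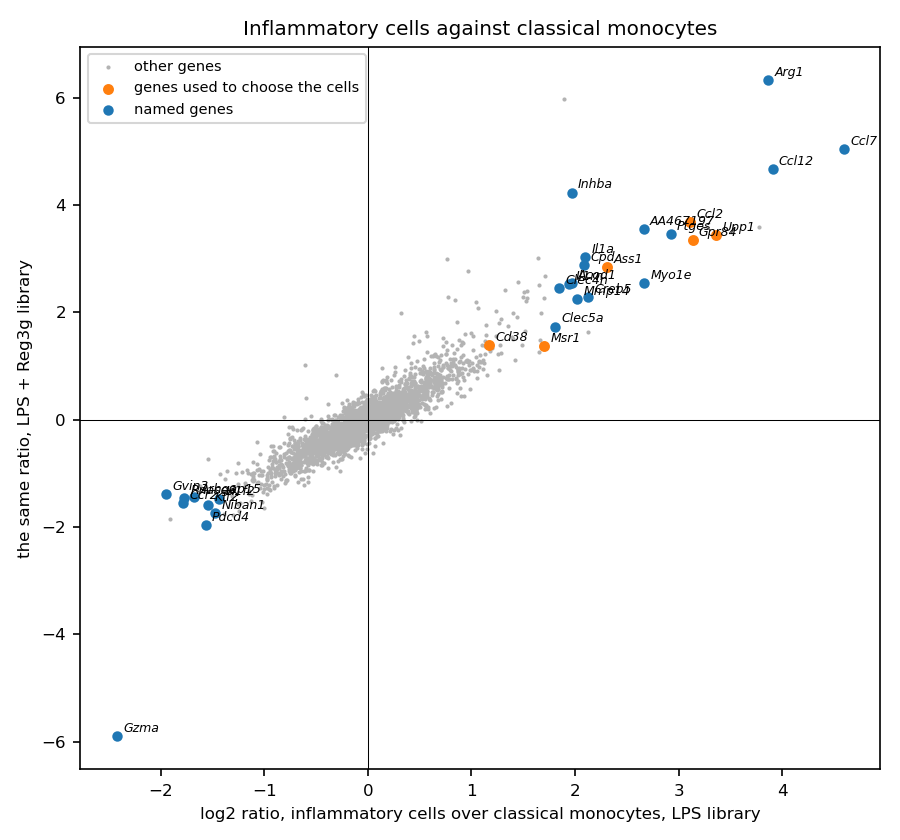
Each point is a gene, with its log2 ratio of inflammatory cells over classical monocytes in the LPS library (x axis) and the LPS with Reg3g library (y axis); orange points chose the cells and blue points are named in the text. Ccl7, Ccl12 and Arg1 lie far up on both axes, and Arg1 lies above the diagonal with 6.34 against 3.87.

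By gene list, 7 of 18 chemokines were at least 2-fold higher than in classical monocytes in both libraries and none lower. The rule gene Ccl2, which helped choose the cells, was among the higher ones. The median log2 ratio of the list was 1.64 with Reg3g and 0.85 with LPS alone. Of 15 matrix and protease genes 6 were higher and 1, Mmp8, was lower. Of 19 cytokines and their brakes 5 were higher and 1 lower. Scavenger and pattern receptors had 4 of 17 higher, among them the rule gene Msr1, and macrophage maturation genes had 4 of 18 higher. Those 4 included Cd63, a lysosome membrane protein, at 233 and 216 CPM against 43.3 and 86.4 CPM, and Spp1, osteopontin, at 147 and 130.3 CPM against 47.5 and 29.8 CPM.

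Of 20 oxidative stress genes 3 were at least 2-fold higher, Fth1 and Sod2 among them, and of 16 inflammasome and cell death genes 2 were, Bcl2a1b and Bcl2a1d. Fth1, encoding the heavy chain of the iron store ferritin, was at 34478 and 35143 CPM in inflammatory cells against 8694 and 13311 CPM in classical monocytes. Sod2, the mitochondrial superoxide dismutase, was at 1631 and 1551 CPM against 409 and 487 CPM. Bcl2a1b, a gene that counters cell death, was at 1007 and 1089.6 CPM against 208 and 376 CPM. Its near-identical relative Bcl2a1d was at 454 and 394 CPM against 85.7 and 136 CPM, and reads may be split between those copies.

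Further lists had no gene past 2-fold upwards. None of 18 oxidative phosphorylation genes and none of 17 genes of antigen presentation by MHC class I was called in either direction. Of 23 type I interferon genes, none was higher and 2 were lower, with medians of -0.20 and -0.34. Immediate early genes had none higher and 3 of 18 lower, and 6 of 12 classical monocyte genes were lower, Ifitm6 and F13a1 among them, and Ly6c2 and Ccr2, which defined the classical monocytes. F13a1, a transglutaminase of coagulation, was at 326 and 225 CPM in inflammatory cells against 665 and 458 CPM in classical monocytes.

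**Figure D3:**
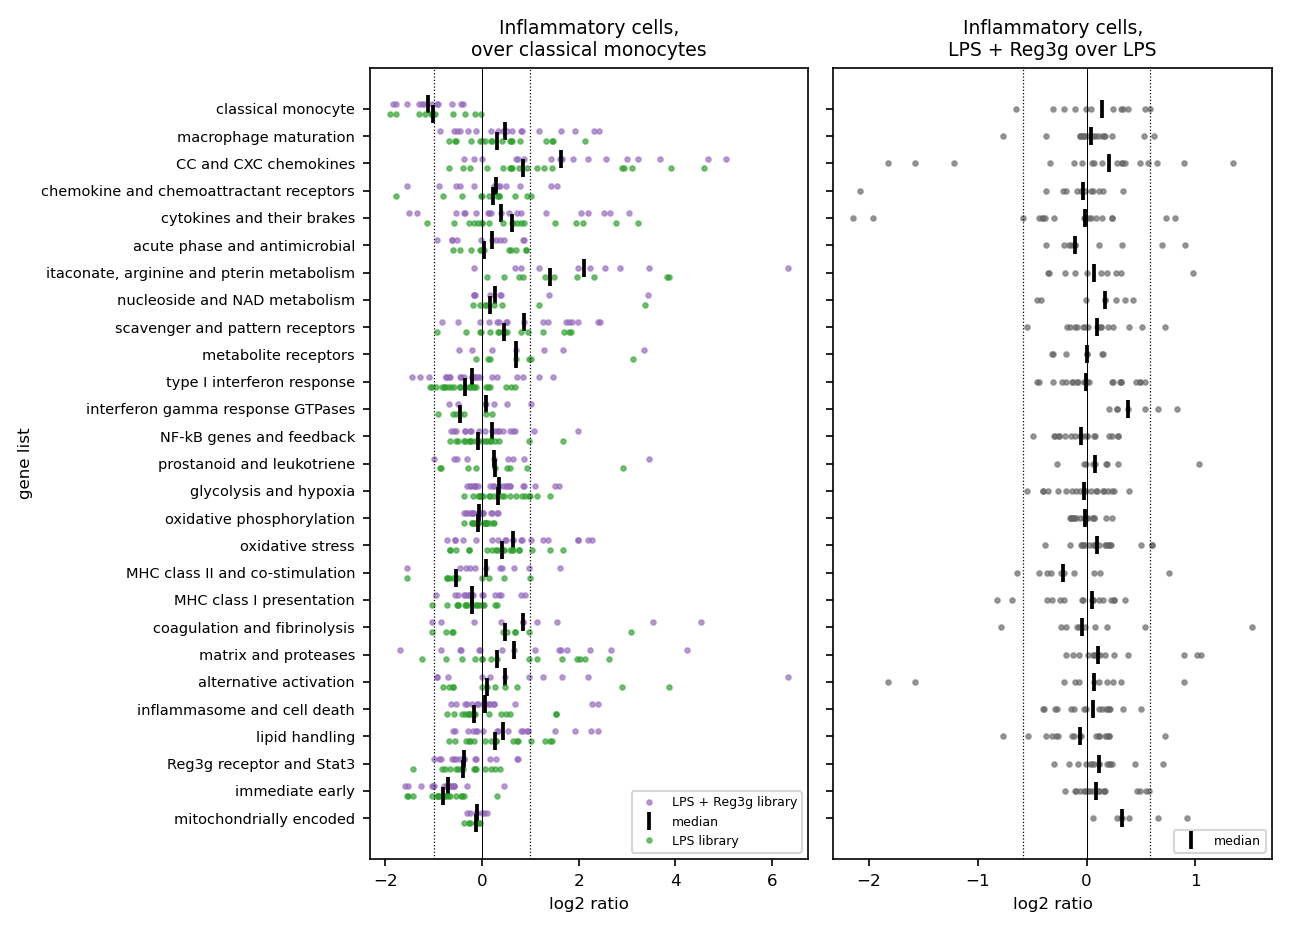
Log2 ratios of the measured genes of each list, with inflammatory cells over classical monocytes on the left (purple, LPS with Reg3g library; green, LPS library) and LPS with Reg3g over LPS within inflammatory cells on the right; bars mark medians and dotted lines the folds used for a call. The chemokine row spreads far to the right on the left panel, with medians of 1.64 and 0.85, and most medians on the right panel lie near 0.

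The inflammatory cells were a mixture, which was described by a split on Arg1 and another on Ly6c2 after thinning every cell to 2000 UMIs. Neither gene belongs to the rule. For each split the 10 highest and 10 lowest genes were taken in the LPS library and then read in the LPS with Reg3g library, which had no part in choosing them. The counts of genes that kept their direction have no share over all genes beside them, so they describe these genes only. Cells with Arg1 numbered 112 against 409 without in the LPS with Reg3g library, and 146 against 690 in the LPS library.

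Cells with Arg1 had more Ccl7, Pf4 and Cxcl3 and less Ccl4. Ccl7 was at 719 CPM in cells with Arg1 and 229 CPM in cells without in the LPS with Reg3g library, and at 808 and 175 CPM in the LPS library. Pf4, a platelet and macrophage chemokine, was at 277 and 116 CPM with Reg3g and at 346 and 67.4 CPM with LPS alone. Interstitial macrophages, whose marker list includes Pf4, had 1234 CPM of it with Reg3g and 1477 CPM with LPS alone. The part of interstitial macrophage RNA in this split was not tested. Cxcl3, a ligand that draws neutrophils, was at 629 and 189 CPM with Reg3g and at 339 and 117 CPM with LPS alone. Abca1, which exports cholesterol, was at 93.8 and 40.3 CPM with Reg3g and 113 and 29.7 CPM with LPS alone.

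Of the 10 genes highest with Arg1 in the LPS library, 9 were also higher in the LPS with Reg3g library, for 4 of them with an interval above 0. The other one, Lyz1, had no UMI in cells with Arg1 there. Of the 10 lowest, 9 were also lower, for 7 with an interval below 0, and Esyt1 went the other way. The lower genes included Ccl4, at 853 and 2418 CPM with Reg3g and 442 and 1878 CPM with LPS alone, the monocyte gene Ifitm6, and the antigen presentation genes H2-Aa and H2-Eb1. H2-Aa was at 107 and 289 CPM with Reg3g and 99.3 and 341 CPM with LPS alone. Cells with Arg1 were deeper before thinning, with medians of 6041 and 5367 UMIs with Reg3g and 5710.5 and 4639.5 UMIs with LPS alone, and they carried a mean of 2.77 and 2.58 thinned rule genes against 2.12 and 2.27.

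Ly6c2, a surface antigen of monocytes fresh from the blood, had a UMI in 233 of the thinned cells against 288 without in the LPS with Reg3g library, and in 530 against 306 in the LPS library. That is 44.7% of cells with Reg3g and 63.4% with LPS alone. Before thinning, cells with Ly6c2 were deeper than cells without, with medians of 5768 and 5223 UMIs with Reg3g and 4838 and 4508.5 with LPS alone. The part of depth in the Arg1 and Ly6c2 splits was not tested. Cells with Ly6c2 had more of the monocyte genes Vcan, at 283 and 109 CPM with Reg3g and 172 and 75.2 CPM with LPS alone, and Ifitm6, at 148 and 45.1 CPM with Reg3g and 123 and 55.6 CPM with LPS alone. Ly6a2 was at 174 and 12.2 CPM with Reg3g and 156 and 21.2 CPM with LPS alone. It belongs to the same gene family as Ly6c2, so shared reads cannot be told apart from joint expression.

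Of the 10 genes highest with Ly6c2 in the LPS library, 7 were also higher in the LPS with Reg3g library, for 5 with an interval above 0. Btk, Actr10 and Gatad1 went the other way. All 10 of the lowest genes were again lower, for 6 with an interval below 0. They included Pf4, at 49.4 and 233 CPM with Reg3g and 33.0 and 259.8 CPM with LPS alone, and H2-Eb1, at 68.7 and 283 CPM with Reg3g and 158 and 519.6 CPM with LPS alone. Fscn1 and Ccl22, which are on the migratory dendritic cell list, were also among these lowest genes. Pf4 is on the interstitial macrophage list, and H2-Eb1 was set aside by the naming rule of the Reg3g contrast. The part of dendritic cell and interstitial macrophage RNA in this split was not tested.

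**Figure D4:**
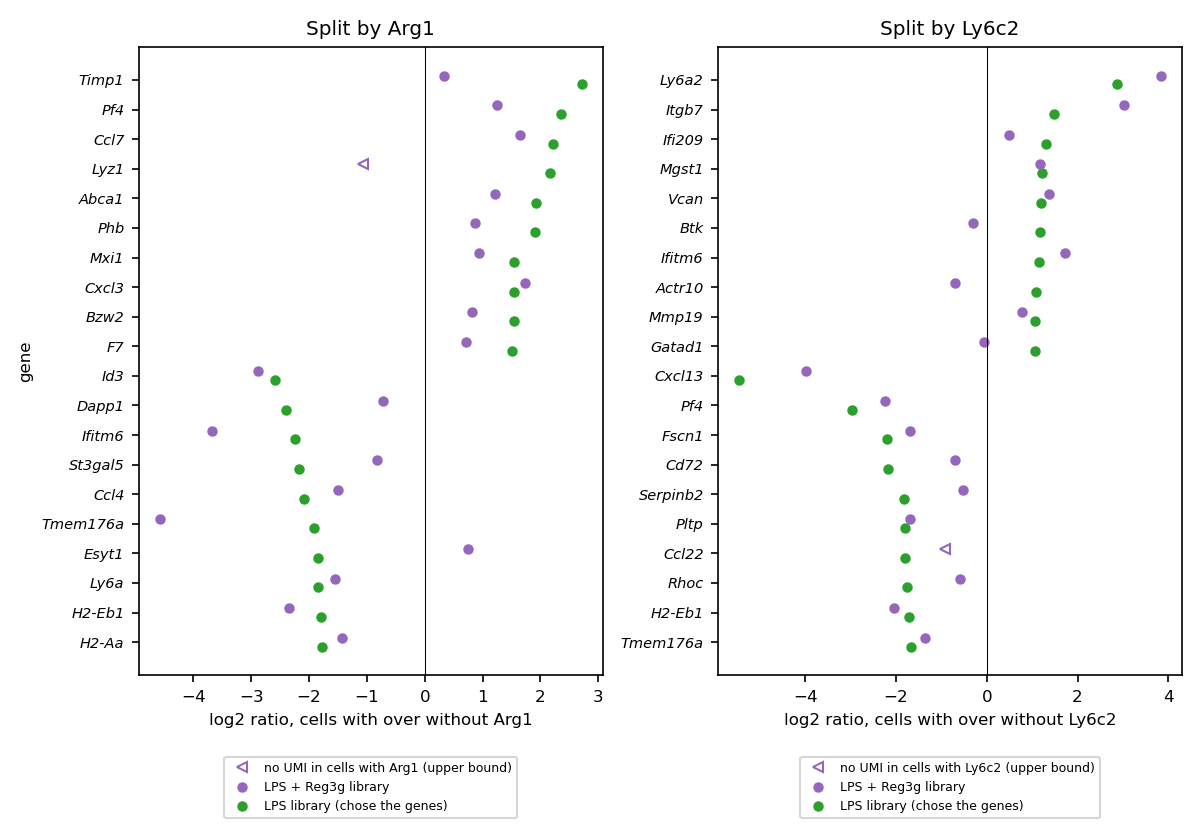
Log2 ratios of cells with over cells without a UMI of Arg1 (left) or Ly6c2 (right) for the 20 genes chosen in the LPS library (green), with the LPS with Reg3g library (purple) beside them; an open mark is an upper bound where no UMI was seen. Most purple points fall on the same side of 0 as the green ones, and Lyz1, Esyt1, Btk, Actr10 and Gatad1 do not.

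With Reg3g, few genes of the inflammatory cells differed from LPS alone by 1.5-fold. Of 3014 genes at 50 CPM or more in the higher library, 27 (0.896%) were at least 1.5-fold higher with Reg3g and 12 (0.398%) at least 1.5-fold lower, and 3 and 2 passed 2-fold. The median log2 ratio over all of them was 0.02. Median-of-ratios scaling gave 21 higher and 18 lower and trimmed mean scaling 18 and 21, so the excess of higher genes depended on the scaling. The counting intervals of all called genes lay on 1 side of 0, which says nothing of the spread between mice.

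The markers of these cells lay below the 1.5-fold mark in either direction. Saa3 was at 11282 CPM with Reg3g and 12132 CPM with LPS alone, a log2 ratio of -0.10 (-0.12 to -0.09). Acod1, at 585 and 672 CPM, had -0.20 (-0.28 to -0.12), and Arg1, at 602 and 483 CPM, had 0.32 (0.23 to 0.41). Ccl2 came closest, at 847 and 573 CPM with a log2 ratio of 0.56 (0.49 to 0.64). That ratio was 0.25 without the cells that carried neutrophil or dendritic cell genes, and it passed 1.5-fold, at 0.66, in cells with no UMI of the alveolar genes and, at 0.64, in cells with at least 4 rule genes. The Arg1 ratio also passed 1.5-fold, at 0.64, where cells were thinned before the rule. The rule gene Upp1, at 228 and 304 CPM, had -0.41 (-0.55 to -0.28), and Msr1, at 335 and 338 CPM, had -0.01 (-0.13 to 0.10). The RNA of Reg3g itself was near nothing, with 1 UMI in the cells of the LPS with Reg3g library, and Extl3, its proposed receptor, was at 18.5 and 17.2 CPM.

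Cxcl9, Gbp2 and Tnf were among the named genes higher with Reg3g. Cxcl9, a chemokine for T cells that interferon gamma induces, was at 79.2 CPM with Reg3g and 31.2 CPM with LPS alone, a log2 ratio of 1.35 (1.04 to 1.65). Only 32 of 544 cells and 24 of 894 carried it, and 10 cells held 77.4% and 87.9% of its UMIs. An interval that counts UMIs as independent is too narrow for such a gene. Gbp2, a guanylate-binding GTPase, was at 80.2 and 45.2 CPM, a log2 ratio of 0.83 (0.55 to 1.10). It was more widely spread, in 21.7% and 15.4% of cells. The Gbp2 ratio was 0.51, short of 1.5-fold, in cells with at least 2 rule genes.

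Tnf, the cytokine tumour necrosis factor, was at 127 CPM with Reg3g and 72.4 CPM with LPS alone, a log2 ratio of 0.81 (0.59 to 1.02), with a UMI in 32.0% and 21.5% of cells. After thinning the shares were 18.2% (15.0 to 21.8) and 12.6% (10.4 to 15.0). In thinned lymphoid cells they were 0 of 35 with Reg3g, which allows up to 10.0%, and 9.84% (3.70 to 20.2) with LPS alone. The intervals with LPS alone overlap. Lymphoid cells may hold Tnf RNA of their own, so their share does not measure free RNA alone. The part of free RNA in Tnf was not tested. The Tnf ratio was 0.39 where cells were thinned before the rule. Classical monocytes showed the same direction, with Tnf at 116 and 72.7 CPM, and so did nonclassical monocytes, at 122 and 79.9 CPM. The difference in Tnf was thus shared by neighbouring populations of the libraries.

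Gbp2 did not run in parallel across populations. It was at 39.6 CPM with Reg3g and 68.6 CPM with LPS alone in classical monocytes, and at 125 and 161 CPM in alveolar macrophages. Cxcl9 was at 25.6 and 20.8 CPM in classical monocytes and 19.6 and 36.0 CPM in alveolar macrophages. Whether these differences differ between populations was not tested, since each rests on 1 library a group.

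Mmp8 and Ifitm1 were higher with Reg3g beside a higher neutrophil signal. Mmp8, the neutrophil collagenase, was at 55.3 CPM with Reg3g and 27.4 CPM with LPS alone, a log2 ratio of 1.01 (0.67 to 1.36). Ifitm1, an interferon-induced membrane protein, was at 150.2 and 85.1 CPM, a log2 ratio of 0.82 (0.62 to 1.02). In neutrophils Mmp8 was at 406 and 156 CPM and Ifitm1 at 1452 and 479 CPM, and in classical monocytes at 179.7 and 64.8 CPM and at 335 and 127 CPM. Without the inflammatory cells that carried neutrophil or dendritic cell genes the log2 ratios were 0.74 for Mmp8 and 1.03 for Ifitm1. Those cells were chosen partly by Mmp8 itself. In cells with at least 4 rule genes the Ifitm1 ratio was 0.43, short of 1.5-fold.

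Further genes above the mark were Pnisr, Mgst1, Cd24a, Cd33 and Rab21, with log2 ratios of 0.75, 0.74, 0.73, 0.71 and 0.70. Each was short of 1.5-fold under an alternative. With cells thinned before the rule Mgst1 was at 0.15 and Rab21 at 0.33, in cells with at least 4 rule genes Pnisr was at 0.53 and Cd33 at 0.47, in cells with at least 2 Pnisr was at 0.55, and without the cells that carried neutrophil or dendritic cell genes Cd24a was at 0.5805.

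Hmox1, the haem oxygenase that answers oxidative stress, was at 1083 CPM with Reg3g and 716 CPM with LPS alone, a log2 ratio of 0.60 (0.53 to 0.67). Gclm, a subunit of the enzyme that makes the glutathione precursor, was at 85.0 and 56.1 CPM, with the same ratio of 0.60 (0.34 to 0.85). They were the 2 of 20 measured oxidative stress genes past 1.5-fold, where 3.01% of all genes at 10 CPM or more were, and none of that list was lower by as much. Under median-of-ratios and under trimmed mean scaling 0 of the 20 were past 1.5-fold.

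Cxcl1 had the lowest ratio among the genes that the naming rule allowed at 50 CPM or more, while Ccl17, which the rule set aside, was at -1.58. This chemokine, which recruits neutrophils through Cxcr2, was at 47.6 CPM with Reg3g and 111 CPM with LPS alone, a log2 ratio of -1.22 (-1.49 to -0.95). A UMI was found in 7.72% and 9.84% of cells, and 10 cells held 62.4% and 51.2% of its UMIs. The ratio was -0.78 with cells weighted equally and -0.05 where cells were thinned before the rule. Cxcl1 was also lower with Reg3g in alveolar macrophages, at 153 and 216 CPM, in interstitial macrophages, at 249.6 and 458 CPM, in neutrophils, at 48.4 and 223 CPM, and in lymphoid cells, at 10.1 and 56.4 CPM.

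Among the lower genes were 2 of the Ly6 family. Ly6c2 was at 563 CPM with Reg3g and 879 CPM with LPS alone, a log2 ratio of -0.64 (-0.73 to -0.56), with a UMI in 60.1% and 77.0% of cells. Ly6i, a neighbour in the Ly6 gene family, was at 63.6 and 116 CPM, a log2 ratio of -0.87 (-1.11 to -0.63). Both genes ran the same way in classical monocytes, where Ly6c2 was at 1381 and 1763 CPM and Ly6i at 61.5 and 203 CPM, and in nonclassical monocytes, at 464 and 842 CPM and at 96.4 and 185 CPM. The classical monocyte list went both ways, with 7 of 12 genes above 0 and 5 below (6 and 6 under median-of-ratios and trimmed mean scaling). No share over all genes stands beside these counts, so they describe the list only. Vcan was at 198 and 132 CPM, F13a1 at 326 and 225 CPM and Ccr2 at 189 and 149.7 CPM in inflammatory cells. Of 12 classical monocyte genes, Ly6c2 was the only one past 1.5-fold, and its ratio was -0.42 in cells with at least 2 rule genes.

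H2-Q7, a nonclassical MHC class I gene, was at 100.001 CPM with Reg3g and 161 CPM with LPS alone, a log2 ratio of -0.68 (-0.88 to -0.49). Its near copy H2-Q6 was at 17.9 and 31.6 CPM, and reads may be split between them. In cells with no UMI of the alveolar genes the H2-Q7 ratio was -0.56, short of 1.5-fold. Serpinb2, an inhibitor of plasminogen activators, was at 32.3 and 55.7 CPM, a log2 ratio of -0.79 (-1.14 to -0.45). It sat in 5.70% and 6.49% of cells, and 10 cells held 69.3% and 70.8% of its UMIs. Its ratio was -0.34 without the cells that carried neutrophil or dendritic cell genes, -0.37 where cells were thinned before the rule and -0.25 with cells weighted equally. Got1, Ckb, Rras and Dusp5 had log2 ratios of -0.82, -0.77, -0.61 and -0.56, the last just short of 1.5-fold. With cells thinned before the rule Ckb was at -0.21 and Dusp5 at -0.0051. Got1 was at -0.389 in cells with at least 4 rule genes. In cells with at least 2, Rras was at -0.34 and Ckb at -0.57, and in cells with no UMI of the alveolar genes Rras was at -0.58.

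Lpl, the lipoprotein lipase, was at 213 CPM with Reg3g and 363 CPM with LPS alone, a log2 ratio of -0.77 (-0.90 to -0.64). Alveolar macrophages had 3189 and 3239 CPM of Lpl, and lymphoid cells, which should lack it, had 212 and 755 CPM. Classical monocytes had 122 and 319 CPM and nonclassical monocytes 174 and 269 CPM, lower with Reg3g as well. The part of free RNA in these values was not tested. The ratio was 0.000997 where cells were thinned before the rule.

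**Figure D5:**
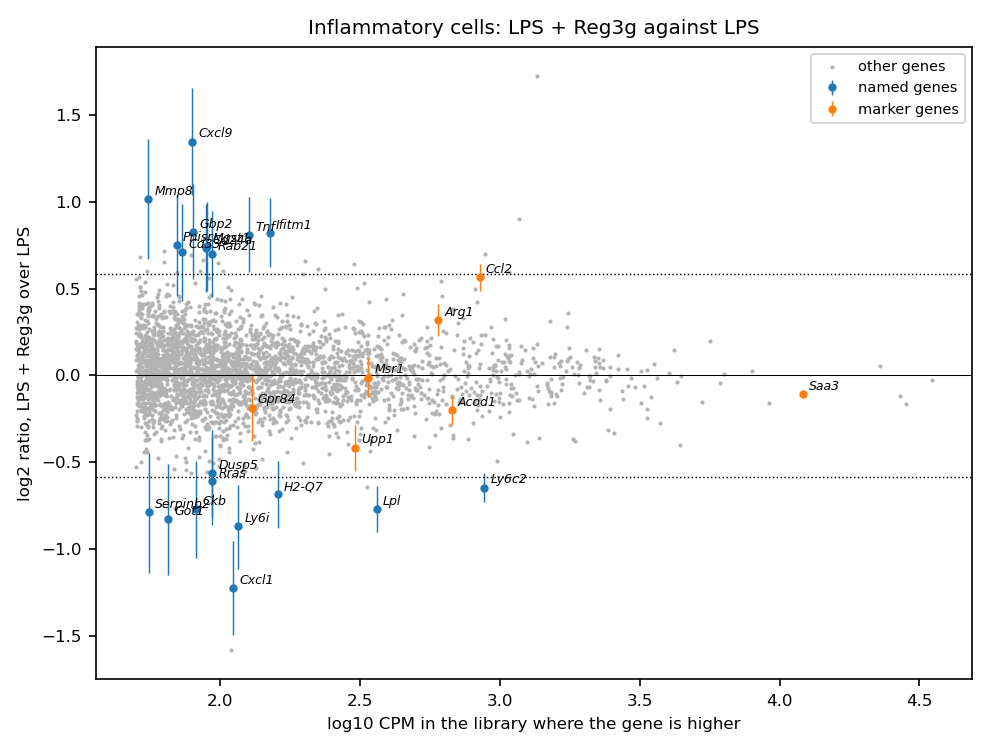
Log2 ratio of LPS with Reg3g over LPS within the inflammatory cells (y axis) against log10 CPM in the higher library (x axis); blue points are named genes, orange points the markers, vertical lines 95% counting intervals and dotted lines 1.5-fold. Cxcl9 at 1.35 and Cxcl1 at -1.22 lie farthest out among the named genes, and the markers lie between the dotted lines.

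The gene lists differed little between the libraries. At the list floor of 10 CPM, 219 of 7287 genes (3.01%) were higher by 1.5-fold or more with Reg3g and 130 (1.78%) lower by as much. The median log2 ratio over all of them was 0.04. None of 22 type I interferon genes, 19 NF-kB genes, 21 glycolysis and hypoxia genes or 18 oxidative phosphorylation genes passed 1.5-fold in either direction, with medians of -0.01, -0.05, -0.02 and -0.02, except that 1 glycolysis and hypoxia gene was lower under median-of-ratios and trimmed mean scaling. All 7 measured interferon gamma response GTPases were above 0, 2 of them past 1.5-fold, with a median of 0.38. Besides Gbp2 the second was Gbp5, at 36.1 CPM with Reg3g and 22.95 CPM with LPS alone, a log2 ratio of 0.65 (0.26 to 1.05). The count of GTPases above 0 has no share over all genes beside it, so it describes these genes only.

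Chemokines went both ways. Of 18 measured, 3 were higher (2 under trimmed mean scaling) and 3 lower with Reg3g, with a median log2 ratio of 0.21. The higher ones were Cxcl9, Ccl24 and Cxcl3. Cxcl3, a ligand that draws neutrophils, was at 300 CPM with Reg3g and 192 CPM with LPS alone, a log2 ratio of 0.64 (0.51 to 0.78). Ccl24 was at 33.9 and 18.3 CPM, a log2 ratio of 0.89 (0.46 to 1.32). The lower ones, Cxcl1, Ccl17 and Ccl22, are made by other cells of the sort as well: Ccl17, a chemokine of dendritic cells, was at 36.4 and 109 CPM, Ccl22 at 9.27 and 32.7 CPM, and the dendritic cell receptor gene Ccr7 at 5.75 and 24.3 CPM. Dendritic cells themselves numbered 148 with Reg3g and 603 with LPS alone. The part of dendritic cell RNA in these values was not tested.

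Among 19 cytokines and brakes 2 were higher and 2 lower (3 lower under median-of-ratios and trimmed mean scaling). Il6 was at 37.7 CPM with Reg3g and 22.7 CPM with LPS alone, a log2 ratio of 0.73 (0.34 to 1.13). Il10, which restrains macrophages, was at 4.79 and 18.7 CPM, -1.97 (-2.86 to -1.16), and Il12b, a subunit of interleukin 12 and also a dendritic cell product, at 3.83 and 16.9 CPM, -2.14 (-3.16 to -1.26). Both had few UMIs, and Il1a, Il1rn and Socs3 lay within 1.5-fold. Il1a was at 282 and 266 CPM, Il1rn at 420.1 and 424 CPM and Socs3 at 337 and 287 CPM.

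Mitochondrially encoded genes were above 0 in 7 of 7 cases (6 under trimmed mean scaling), 2 past 1.5-fold, with a median log2 ratio of 0.33. This count above 0 also has no share over all genes beside it and describes these genes only. mt-Nd1 was at 1041 CPM with Reg3g and 831 CPM with LPS alone, and mt-Nd2 at 201 and 127 CPM. The mitochondrial share of UMIs was 0.449% and 0.358% in inflammatory cells. This RNA is also a sign of cell quality, and classical monocytes showed the same direction, with mt-Nd1 at 1006 and 853 CPM. Its part in the other values was not tested.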

How the data were processed

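Single-cell RNA was measured in 3 libraries, 1 per group, from sorted lung cells of C57BL/6 mice. The deposited values are raw UMI counts for 55357 features, which Cell Ranger 9.0.1 wrote, per the file headers. Seurat 4.4.0, bcl2fastq 5.0.1 and the mm10 build are listed in the submitters' processing notes, and no annotation is named (not given in the sources used here). Symbols were used as the files pair them. The shallowest barcode held 500 to 502 UMIs, and 343 to 1135 barcodes per library failed the cell filter (500 genes or more, 1000 UMIs or more, mitochondrial UMIs up to 15%). Doublets were kept in the main values. The members and all gene lists were chosen with earlier results of these data known.

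UMI counts were summed per population and library and divided by the population's total (CPM). Log2 ratios have exact conditional binomial intervals, shares exact Clopper-Pearson intervals, all at 95%; a count of 0 was set to a floor of 3 counts per population of a library. They treat UMIs as independent draws. With 1 library a group no p-value was computed and a call means a fold, at least 1.5 between libraries and at least 2 in both libraries between populations, among genes at 50 CPM or more in the higher one (10 CPM for lists).

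Comparison populations were set by markers on the same filtered cells. Alveolar macrophages had at least 3 UMIs of Krt79, Plet1 and Slc39a2, interstitial macrophages at least 2 of the 4 interstitial genes, nonclassical monocytes at least 2 of the 5 nonclassical genes, and neutrophils, lymphoid and dendritic cells a similar minimum of their own genes. Lymphoid cells and neutrophils also had no UMI of Csf1r. Fewer RNA molecules per cell and fewer cells of a kind cannot be told apart in a summed level.

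Genes named are those with the 10 highest and the 10 lowest ratios of LPS with Reg3g over LPS, and the 15 highest and 10 lowest by the smaller of the log2 ratios over classical monocytes. From each list up to 4 genes could be named, and the markers, the rule genes, Reg3g and Extl3 always. Left out were rule genes, genes of ribosomal proteins, mitochondrial transcripts, globins and immunoglobulins, predicted genes, and genes under 10% of their CPM in another population of at least 50 cells in the same library. C1qb, Plac8, the Reg3g ratios of Cxcl3 and Ccl24, and the genes set aside by this rule were reported after their values were seen. Irg1l, Ero1l and Ear11 of the lists were not matched. Not every gene that met the rule is reported here. Shares of cells with a UMI are over all cells of a population unless given as thinned, to 2000 UMIs per cell.

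The ratio calculation was tested on simulated data. Alternatives were other cell filters, removal of the highest Scrublet scores, at least 2 or 4 rule genes, no alveolar UMI, thinning before the rule, other scalings, cells weighted equally and other floors. Leaving out cells with neutrophil or dendritic cell genes was added after the data were seen. Promoter windows are from RefSeq. Python 3.11.15, numpy 2.4.6, scipy 1.17.1, pandas 2.3.3, scanpy 1.11.5 and matplotlib 3.10.9 were used.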

Additional observations from a re-analysis of the deposited data

How the results depend on the processing

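The share of inflammatory cells with Reg3g over that with LPS alone was 0.874 and lay between 0.8347 and 0.9125 under the 8 alternatives run on it. Counts of genes past a fold depended on depth and on the floor of expression. Thinning cells to 2000 UMIs before the rule gave 156 genes higher and 101 lower with Reg3g, against 27 and 12 as reported, and 91 genes lower than in classical monocytes, against 49. A floor of 20 CPM gave 94 higher and 44 lower with Reg3g, and 133 higher and 88 lower than in classical monocytes, against 75 and 49. A floor of 200 CPM gave 7 and 3 with Reg3g, and 34 and 9 against classical monocytes. Asking for at least 4 rule genes gave 28 lower with Reg3g and 104 lower than in classical monocytes, and asking for at least 2 gave 12 lower than in classical monocytes. Trimmed mean scaling gave 21 lower with Reg3g. These alternatives change how many UMIs, cells or genes enter, and the cause of each shift was not tested further. Leaving out cells with neutrophil or dendritic cell genes gave 19 higher and 14 lower with Reg3g. Among named genes past 1.5-fold with LPS and Reg3g over LPS, Lpl alone changed sign, at 0.000997 on the log2 scale after thinning. Of the markers below 1.5-fold, Saa3 and Gpr84 changed sign after thinning, at 0.03 and 0.09, and Msr1 at 0.08 with at least 4 rule genes. Of the values of named genes in that contrast under the alternatives, 251 kept within their interval and 45 moved out of it in size. No paired analysis was possible because each group is 1 library. Depth limits genes under about 50 CPM, and 1 library a group limits every comparison.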

Other observations

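Cxcl13, a B cell chemokine that lies outside the rule for named genes because another population of the library had over 10 times its level, was at 1355 CPM in inflammatory cells with Reg3g and 410.1 CPM with LPS alone. It had a UMI in 7.54% and 5.59% of these cells, and 10 cells held 94.2% and 96.2% of its UMIs. Within the thinned cells it was at 185 CPM in cells with Ly6c2 and 2927 CPM in cells without in the LPS with Reg3g library, and at 19.8 and 868 CPM in the LPS library.

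The neutrophil genes S100a8, S100a9 and Retnlg were set aside by the same rule, with log2 ratios of LPS with Reg3g over LPS of 0.90, 0.70 and 0.71 in inflammatory cells. G0s2, H2-Eb1 and Ccl17 were set aside as well, with -0.76, -0.64 and -1.58. For S100a8, found in 51.1% and 41.4% of cells, 10 cells held 47.2% and 34.4% of the UMIs.

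The 10 cells of the PBS library that met the criteria had a median of 4777.5 UMIs, with Ccl2 at 176 CPM, Cd38 at 127 CPM and Plac8 at 1249 CPM.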
